A study of Mus musculus with 6 samples.

Results

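Endothelial receptor and junction genes were read in mouse kidneys that carry a deletion in the transcription factor Sall1 and in wild type kidneys. The 10 genes, chosen by name as genes known from endothelium, were Kdr, Flt1, Tek, Tie1, Eng, Pecam1, Cdh5, Esam, Plvap and Emcn. All 10 of the 10 listed were among the 11578 genes of the deposited table. The study compared 3 kidneys labelled as SRM deletion mutants (libraries 328, 336 and 342) with 3 labelled Sall1 wild type (libraries 330, 331 and 337), all harvested fresh. The stage is given as embryonic day 17 in one place and 17.5 in another. The SRM is the repression motif through which Sall1 recruits the NuRD chromatin remodelling complex. The sources used here do not say what the strain, litter and sex were, whether the deletion was on both alleles, or whether the kidneys of a group came from separate embryos. The p-values therefore cover only the spread among the 6 kidneys sequenced.

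Blood vessels of the kidney are lined by endothelial cells, which form arteries, the fenestrated capillaries of the glomerulus, and the peritubular capillaries around the tubules. Their growth is driven largely by vascular endothelial growth factor (VEGF), which podocytes and tubule cells secrete, and their stability by angiopoietins acting on Tie receptors. Neighbouring endothelial cells are held together by adherens and tight junctions built on VE-cadherin and on immunoglobulin-type adhesion molecules. In whole kidney RNA, fewer endothelial cells and less RNA per endothelial cell cannot be told apart.

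Values are a scaled signal per gene that the authors brought to nearly equal totals, between 555147910 and 559251769 per library. The spacing of the values gave a lower depth for mutant 336 and wild types 331 and 337, the first pair of which stood at 1.92 and 1.54 times wild type 337. Mutants 328 and 342 and wild type 330 stood at an estimated 3.99, 4.34 and 4.12 times wild type 337. On the first principal component (60.0% of the variance) wild type 330 lay with the mutants, and wild types 331 and 337 lay on the other side. None of the 139 distinct marker and pathway genes found in the table, out of 154 listed, was at 0 in any library. Of a further list of endothelial genes, 30 of 33 were in the table, and Ly6c1, Slco1a4 and Prox1 were not. Adgrl4, Adgrf5, Vegfd and Hbb-bs stood there under the older symbols Eltd1, Gpr116, Figf and Beta-s.

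No endothelial gene passed the test between genotypes. With limma p-values adjusted by Benjamini-Hochberg over all genes and a threshold of 0.05, 0 of the 10 were called, beside 0.285% of all genes. The lowest adjusted p was 0.240, for Plvap. At an unadjusted limma p under 0.05 there were 3 of 10, beside 19.0% of all genes. Of these, 2 were higher in mutants (Plvap and Tie1), beside 10.5% of all genes, and 1 was lower (Emcn), beside 8.51%. By the p-values of the authors' deposited table none of the 10 was under 0.05, beside 8.71% of all genes, and the lowest was 0.0747 for Tie1. The median log2 difference over the 10, mutant minus wild type, was 0.0454, and over all genes it was 0.0242.

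The 10 genes ranged from steady to unequal between libraries. Pecam1, Cdh5 and Kdr had a highest to lowest ratio over the 6 libraries of 1.10, 1.16 and 1.17, a spread under 1.2 that 3.07% of all genes showed. Tek, Flt1 and Esam followed at 1.39, 1.41 and 1.43. Emcn, Eng, Plvap and Tie1 had ratios of 2.16, 2.02, 1.91 and 1.81, against a median of 1.72 over all genes. In mean signal Pecam1, Cdh5 and Kdr exceeded 89.9%, 94.3% and 86.0% of the genes in the table. Genes of like signal level or transcript G and C content were not compared separately. The promoters of 3 genes are shown for how their group means compared: Tie1 and Emcn had log2 differences of opposite sign, and Tek, the receptor most closely related to Tie1, had nearly equal group means. Each is the stretch from 250 bases before to 50 after the RefSeq start (GRCm38.p6, 5′ to 3′ on the gene's strand), at chr4:118489800-118490099 on the minus strand for Tie1, chr4:94739039-94739338 on the plus strand for Tek and chr3:137340828-137341127 on the plus strand for Emcn. Capitals mark CAGGAA, a sequence that ETS family factors of endothelium are known to bind, or TTCCTG where it lies on the other strand.
Tie1: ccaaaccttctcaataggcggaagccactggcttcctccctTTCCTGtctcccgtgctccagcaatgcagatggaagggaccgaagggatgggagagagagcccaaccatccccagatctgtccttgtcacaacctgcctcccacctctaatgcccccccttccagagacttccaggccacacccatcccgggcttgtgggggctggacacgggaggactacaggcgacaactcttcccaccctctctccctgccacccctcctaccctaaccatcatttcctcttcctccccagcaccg
Tek: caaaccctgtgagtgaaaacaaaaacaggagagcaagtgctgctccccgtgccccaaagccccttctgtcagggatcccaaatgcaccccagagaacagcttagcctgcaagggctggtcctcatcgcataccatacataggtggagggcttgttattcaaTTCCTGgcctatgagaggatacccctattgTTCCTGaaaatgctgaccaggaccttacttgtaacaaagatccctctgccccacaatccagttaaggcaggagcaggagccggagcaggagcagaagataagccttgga
Emcn: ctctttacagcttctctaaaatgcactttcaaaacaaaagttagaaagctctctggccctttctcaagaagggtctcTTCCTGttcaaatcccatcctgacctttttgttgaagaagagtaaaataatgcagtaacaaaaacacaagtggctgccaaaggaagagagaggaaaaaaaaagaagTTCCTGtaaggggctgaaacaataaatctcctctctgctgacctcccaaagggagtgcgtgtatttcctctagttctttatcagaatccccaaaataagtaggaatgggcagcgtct
RefSeq promoters were matched for 6 of the 10 genes (Emcn, Eng, Flt1, Kdr, Tek and Tie1), and Cdh5, Esam, Pecam1 and Plvap had no entry in the table used. On either strand, CAGGAA was found in 4 of the 6, with 2 copies in Emcn and in Tek and 1 in Tie1 and in Eng, in 30.6% of all 32851 RefSeq promoters of the same length, and in 25.5% of the 11136 promoters of genes in the table. CCGGAA, another ETS sequence, was found once, in Kdr, and in 14.9% of all promoters and 27.1% of those of genes in the table. The core GGAA, which both of these contain, was in all 6 and in 96% of all promoters. Of the 6, Tek alone held AGATAA, which GATA factors bind, beside 11.2% of all promoters and 6.01% of those of genes in the table. Emcn and Tek held AACAAT, which SOX factors bind, beside 10.7% and 5.67%. The promoter of Emcn was 41% G and C, that of Tek 52%, of Tie1 60.3%, of Kdr 60.7%, of Eng 63.3% and of Flt1 70.7%. This order was not that of the log2 differences, which were near 0 for Kdr and Flt1.

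**Figure D1:**
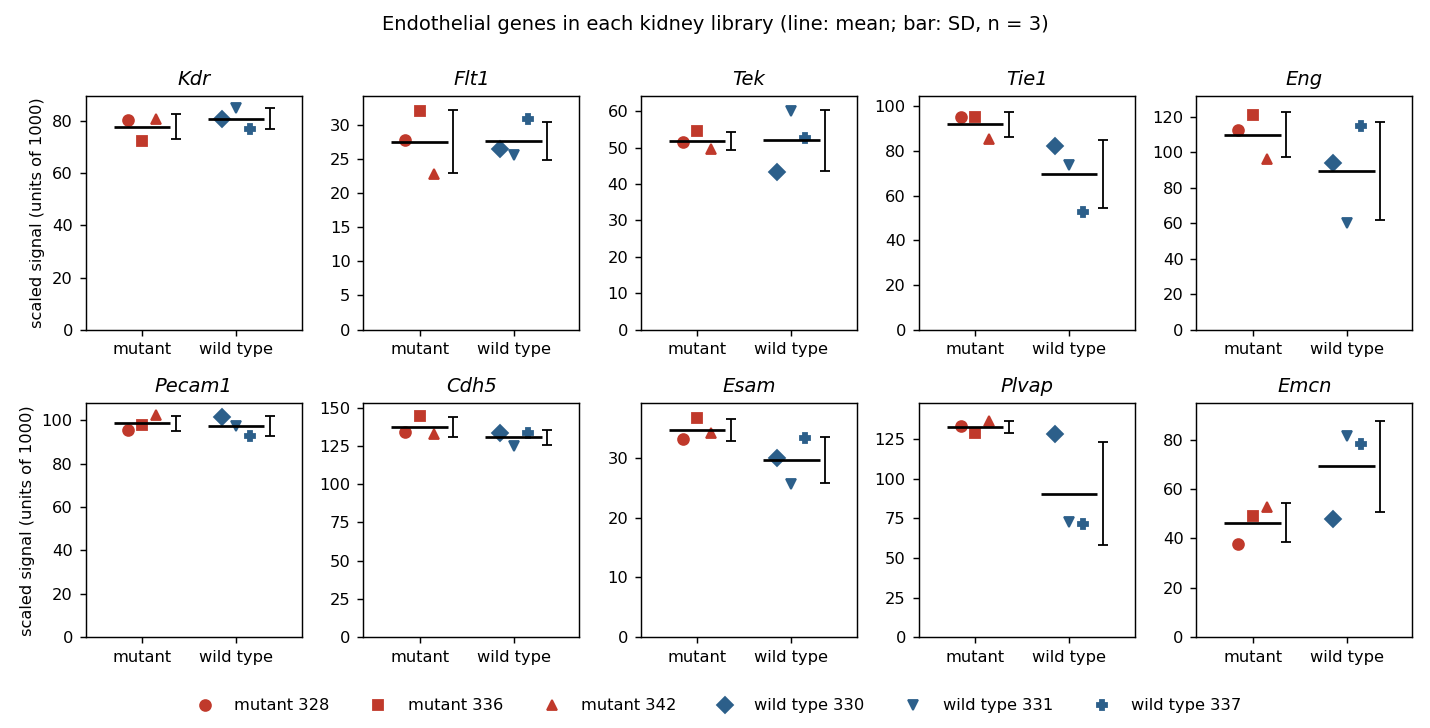
Scaled signal of each endothelial gene (y axis, in units of 1000, starting at 0) in the 3 mutant and 3 wild type libraries, 1 point per library, with the group mean as a line and the SD (n = 3) as a bar. Pecam1, Cdh5 and Kdr were level across libraries, while in Plvap and Emcn wild type 330 sat with the mutants and wild types 331 and 337 sat apart.

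The receptors for VEGF had nearly equal means in both genotypes. Kdr (VEGFR2; chromosome 5, 75932827 to 75978458, mm10), which carries most of the growth signal of VEGF, had a signal of 80462, 72404 and 80911 in mutants 328, 336 and 342. It was 80816, 84899 and 76965 in wild types 330, 331 and 337, so the groups overlapped. The means were 77926 ± 4787 (SD, n = 3) and 80893 ± 3968 (SD, n = 3), a log2 difference of -0.0546 (95% interval -0.40 to 0.29, SE 0.16, limma adjusted p = 0.855). Flt1 (VEGFR1; chromosome 5, 147561604 to 147726011) binds VEGF tightly and, in a soluble form, acts as a decoy. Its signal was 27799, 31992 and 22737 in the mutants and 26448, 25511 and 30816 in the wild types. The highest and the lowest value were both in mutants, and the log2 difference was -0.0134 (95% interval -0.44 to 0.41, SE 0.20, limma adjusted p = 0.972). Per kb of transcript, Kdr stood at 3.38 ± 0.754 times Flt1 in mutants and 3.45 ± 0.493 times in wild types (SD, n = 3), with an exact two-sided permutation p of 0.9. With 3 against 3 libraries that test cannot go below 0.1. The lengths used were those of the longest transcripts, 5924 bases for Kdr and 6895 for Flt1. The mean transcript lengths were 4374 and 2989 bases, so the level of the ratio, but not its comparison between genotypes, depends on that choice.

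Of the receptors for angiopoietins, Tek had nearly equal group means, and Tie1 was higher in each mutant than in any wild type. Tek (TIE2; chromosome 4, 94739289 to 94874976), the receptor that angiopoietins bind, had 51451, 54526 and 49549 in mutants and 43341, 60054 and 52548 in wild types. The mutant values lay inside the wild type range, with a log2 difference of 0.00779 (95% interval -0.38 to 0.40, SE 0.18, limma adjusted p = 0.983). Tie1 (chromosome 4, 118471191 to 118490061), a partner of Tek with no ligand of its own among the classical angiopoietins, had 95034, 95191 and 85449 in mutants and 82163, 73691 and 52640 in wild types. The groups did not overlap, as was so in the higher direction for 11.1% of all genes, and wild type 337 was the lowest by far. The means were 91891 ± 5580 and 69498 ± 15202 (SD, n = 3), a log2 difference of 0.43 (95% interval 0.00782 to 0.84, SE 0.19, limma unadjusted p = 0.0465, adjusted p = 0.261). Without wild type 337 the log2 difference was 0.24. The ratio of Tek to Tie1 per kb was 0.493, 0.521 and 0.528 in mutants and 0.480, 0.741 and 0.908 in wild types. Wild type 330 was the lowest of all and the other 2 wild types the highest, and the exact two-sided permutation p was 0.4.

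Eng, or endoglin (chromosome 2, 32646595 to 32682669), a co-receptor for BMP9 and TGF-beta, was spread widely among the wild types. It had 112296, 120944 and 96168 in mutants and 93603, 59882 and 114483 in wild types. Only wild type 331 lay far below the other libraries. The log2 difference was 0.34 (95% interval -0.16 to 0.84, SE 0.23, limma adjusted p = 0.391), and without wild type 331 it was 0.0785.

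Of the junction genes, Pecam1 and Cdh5 were level across libraries and Esam less so. Pecam1 (CD31; chromosome 11, 106654217 to 106750628), an adhesion molecule at contacts between endothelial cells that platelets and some leukocytes also carry, had 95425, 97946 and 102200 in mutants and 101653, 97404 and 92632 in wild types. The groups overlapped, with means of 98524 ± 3424 and 97230 ± 4513 (SD, n = 3) and a log2 difference of 0.0195 (95% interval -0.31 to 0.35, SE 0.15, limma adjusted p = 0.949). Over all genes, 0.276% had a smaller ratio of highest to lowest library than Pecam1. Cdh5, VE-cadherin (chromosome 8, 104101625 to 104144511), the cadherin of endothelial adherens junctions, had 134295, 144564 and 132558 in mutants and 133338, 124828 and 133348 in wild types. Its log2 difference was 0.0712 (95% interval -0.26 to 0.40, SE 0.15, limma adjusted p = 0.797). Esam (chromosome 9, 37528078 to 37538319), an adhesion molecule of endothelial tight junctions and platelets, had 33108, 36740 and 34204 in mutants and 30046, 25613 and 33351 in wild types. Wild type 337 exceeded the lowest mutant, so the groups overlapped, and the log2 difference was 0.23 (95% interval -0.16 to 0.63, SE 0.18, limma adjusted p = 0.456).

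Plvap and Emcn, surface proteins of capillaries and veins, lay furthest apart. Plvap (chromosome 8, 71497765 to 71511752), which forms the diaphragms of fenestrae and caveolae, had 133262, 128846 and 136379 in mutants and 127884, 72385 and 71334 in wild types. The groups did not overlap, but wild type 330 came within 1 mutant SD of the lowest mutant while the other wild types were far below. The means were 132829 ± 3785 and 90534 ± 32350 (SD, n = 3), a log2 difference of 0.61 (95% interval 0.13 to 1.09, SE 0.22, limma unadjusted p = 0.0177, adjusted p = 0.240). Emcn, endomucin (chromosome 3, 137341067 to 137432185), a sialomucin of capillary and venous endothelium, had 37593, 48995 and 52745 in mutants and 47820, 81346 and 78365 in wild types. Here too wild type 330 fell among the mutants, and the groups overlapped. The means were 46444 ± 7891 and 69177 ± 18556 (SD, n = 3), a log2 difference of -0.55 (95% interval -1.05 to -0.0479, SE 0.23, limma unadjusted p = 0.0344, adjusted p = 0.253). The ratio of Plvap to Emcn per kb, a pair chosen after their values were seen and so not tested, was 6.28, 4.66 and 4.58 in mutants and 4.74, 1.58 and 1.61 in wild types. It separated wild types 331 and 337 from the other 4 libraries, not the genotypes.

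Levels were compared between genes as signal per kb of the longest GENCODE transcript. Plvap stood highest at 56206 ± 15601 per kb (SD over 6 libraries), followed by Cdh5 at 33497 ± 1577, Eng at 29095 ± 6487 and Pecam1 at 28444 ± 1061. The next were Tie1 at 19059 ± 3774, Esam at 17253 ± 2074, Emcn at 16419 ± 5062, Kdr at 13405 ± 718 and Tek at 11154 ± 1188 per kb. Flt1 was lowest at 3996 ± 498 per kb. Of the neighbours in this order, Pecam1 and Tie1, and Tek and Flt1, had ranges that did not overlap, whereas the other 7 neighbouring pairs overlapped. Divided by the mean length of a gene's transcripts instead, Cdh5 stood first and Plvap second, and Flt1 was again last. In signal not divided by length, Cdh5 exceeded 94.3% and Flt1 50.8% of the genes in the table.

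**Figure D2:**
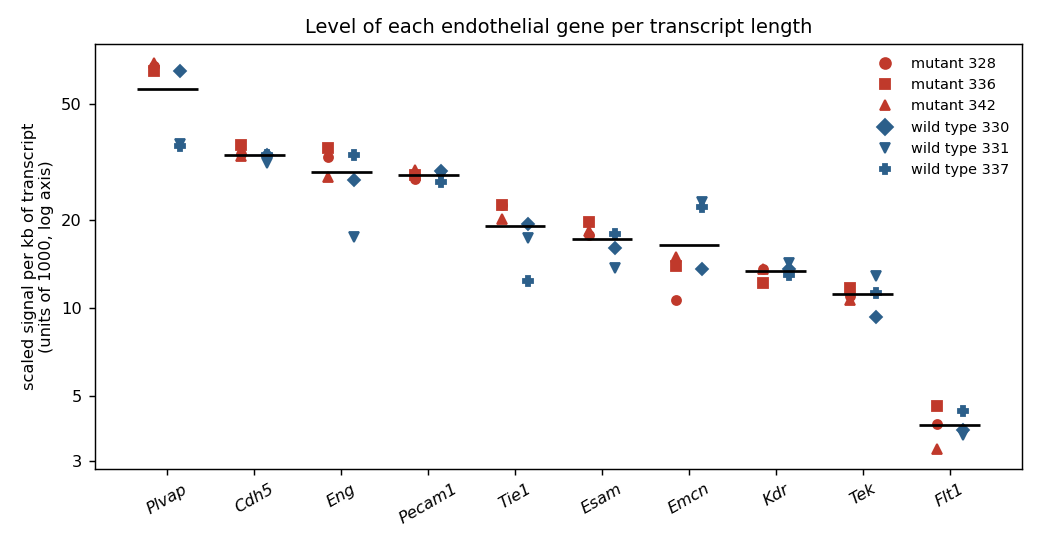
Scaled signal per kb of the longest transcript (y axis, in units of 1000, log axis) for the 10 endothelial genes, ordered by the mean over 6 libraries (line), with 1 point per library, red for mutants and blue for wild types. Plvap was highest, Flt1 lowest, and most neighbours overlapped.

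The size and sign of the log2 differences went with the base composition of the transcripts. Emcn, with 40.7% G and C in its longest transcript, had the lowest log2 difference, and Plvap, with 60.6%, the highest. Between them, Tek at 47.1%, Kdr at 49.4%, Pecam1 at 50.2%, Flt1 at 50.5% and Cdh5 at 52.2% had differences near 0. Esam at 53.7%, Eng at 57.4% and Tie1 at 57.6% had positive ones. Pearson's r between GC content and log2 difference was 0.978 over the 10 genes and 0.610 over the 11518 genes with a matched transcript. The points share the same 6 libraries, so no p is given. Of all genes with 55% GC or more 90.8% had a higher mean in mutants, and of those under 45% it was 13.6%, with median log2 differences of 0.37 and -0.34.

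The slope could also be read library by library. Taking each gene's log2 signal minus its mean over the 6 libraries, r with GC content over the 10 genes was 0.935, 0.839 and 0.620 in mutants 328, 336 and 342 and 0.750 in wild type 330. It was -0.908 and -0.723 in wild types 331 and 337. Wild type 330 thus shared its sign with the mutants. These deviations sum to 0 over the libraries for each gene, so the 6 values are not separate evidence.

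**Figure D3:**
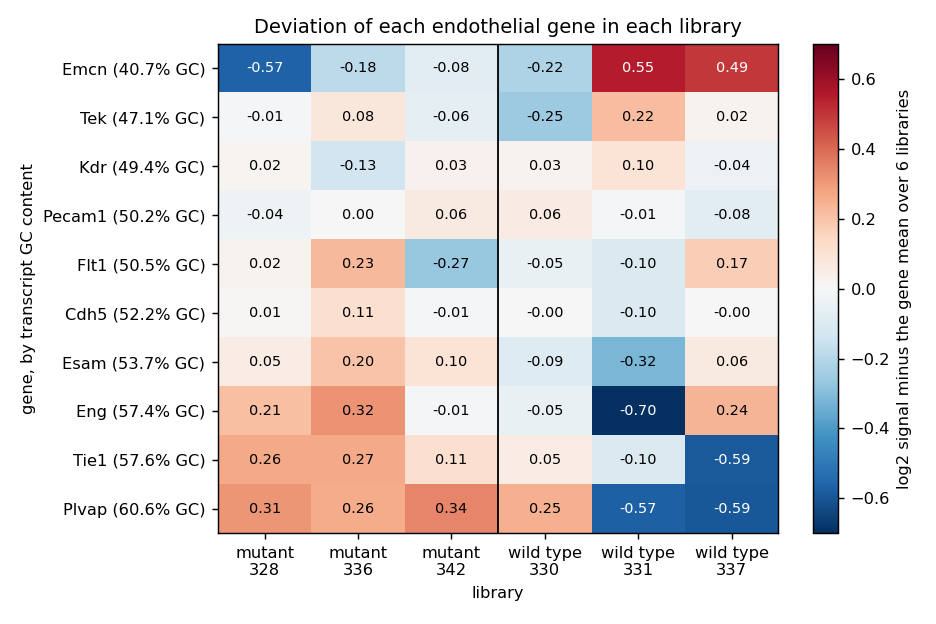
Log2 signal of each gene minus its mean over the 6 libraries (colour and printed value), with genes ordered from low (top) to high GC content and libraries in columns. Wild types 331 and 337 were high for Emcn (0.55 and 0.49) and low for Plvap (-0.57 and -0.59). Wild type 330 resembled the mutants in these genes (-0.22 and 0.25) but not in all, and for Tek it was the lowest library (-0.25).

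When the trend with length and GC content over all matched genes was taken out library by library, the 5 endothelial genes with the widest differences came nearer to 0. Plvap went to 0.13 (SE 0.12), Tie1 to 0.0265 (SE 0.14), Esam to 0.0403 (SE 0.16), Eng to -0.0522 (SE 0.21) and Emcn to -0.19 (SE 0.14). The other 5, which had been nearest to 0, moved outward: Tek to 0.0837, Pecam1 to -0.0667, Flt1 to -0.0798, Kdr to -0.0800 and Cdh5 to -0.10. All 10 lay between -0.19 and 0.13. Pearson's r between GC content and log2 difference over the 10 genes was then 0.638, so a relation to GC content remained. Emcn was still the lowest and Plvap still the highest. At an unadjusted limma p under 0.05 there were then 0 of 10, beside 13.1% of all genes, and the lowest adjusted p was 0.572. Since all 3 mutants and only 1 of 3 wild types had the positive slope, this step may also take out a genotype difference shared by GC-rich genes, which was not tested.

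**Figure D4:**
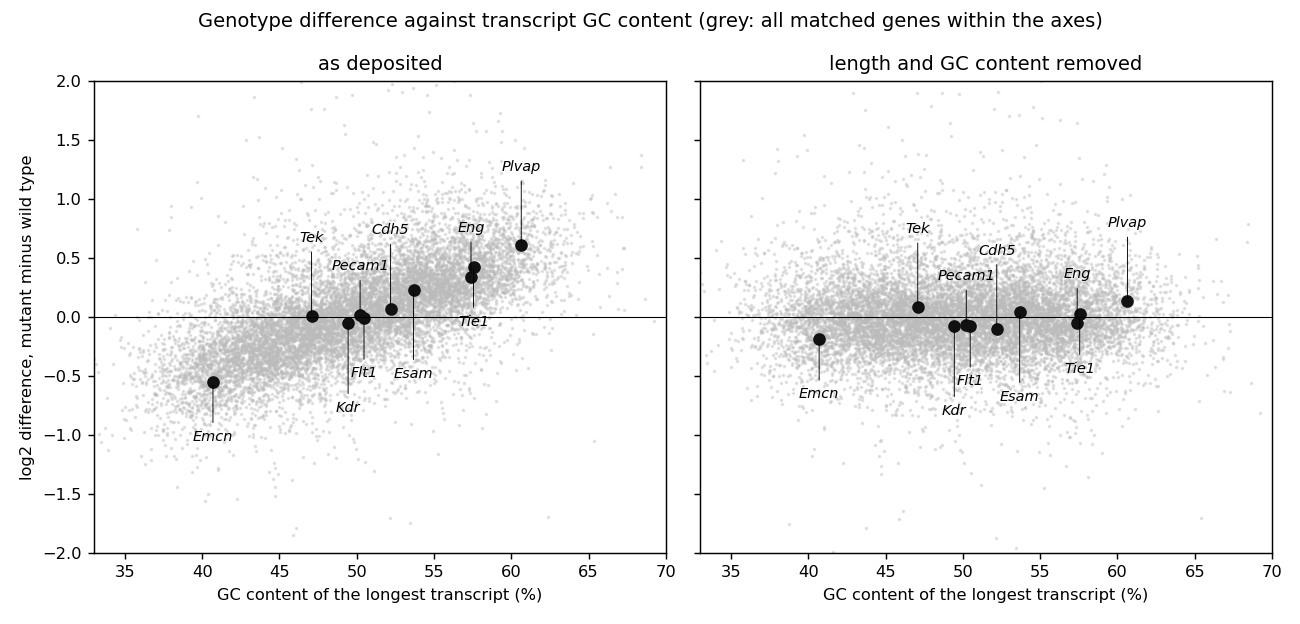
Log2 difference between mutant and wild type (y axis) against GC content of the longest transcript in % (x axis), as deposited on the left and with length and GC content removed on the right, with endothelial genes in black and all other matched genes in grey. The 10 genes lay along the slope of all genes on the left, from -0.55 for Emcn to 0.61 for Plvap, and between -0.19 and 0.13 on the right.

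The calls depended on wild type 330. Without it, Plvap (log2 change 0.89, limma adjusted p = 0.00348), Emcn (-0.80, adjusted p = 0.0101) and Tie1 (0.56, adjusted p = 0.0369) passed the test, as did 26.7% of all genes. Over all fits that left out 1 library the adjusted p of Plvap, Emcn and Tie1 passed in no other. Within the deeper class, mutants 328 and 342 against wild type 330, the log2 differences were 0.0761 for Plvap, -0.10 for Emcn and 0.13 for Tie1. Within the shallower class, mutant 336 against wild types 331 and 337, they were 0.84, -0.70 and 0.61, of which Plvap passed (limma adjusted p = 0.0223), as did 6.08% of all genes. One genotype has a single library in each class, whose spread was taken from the others. With array weights the same 3 genes passed, as did 30.2% of all genes. Those weights were lowest for wild type 330 (0.298) and highest for mutant 328 (5.33), against 0.774 for mutant 336 and 1.19 for mutant 342. The mutant mean of the weighted fit thus rested mostly on mutant 328. The weighted fit also gave wild type 330 the least say, and is not separate from the fit without wild type 330.

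**Figure D5:**
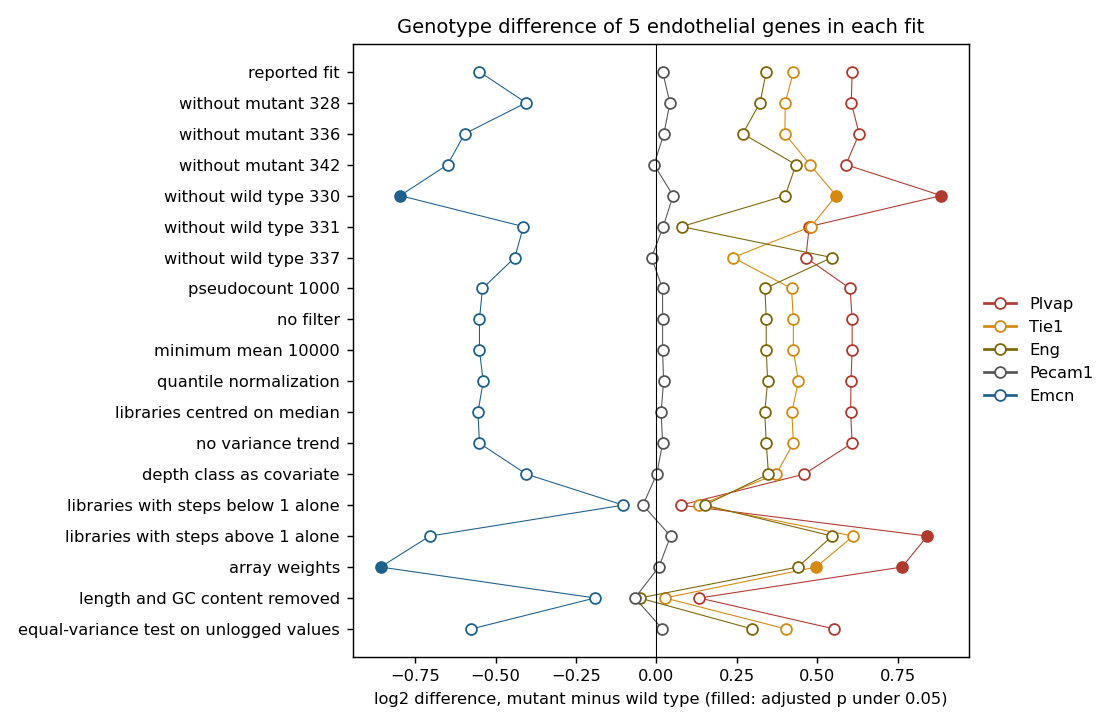
Log2 difference between mutant and wild type (x axis) of Plvap, Tie1, Eng, Pecam1 and Emcn in the reported fit and 18 alternative fits (y axis), with filled points where the adjusted p was under 0.05. Pecam1 stayed near 0 throughout, and Plvap and Emcn came close to 0 in the deeper libraries alone and with length and GC content removed.

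Of the 45 pairs of endothelial genes, 21 had a Pearson's r above 0 over the 6 libraries, and the median r was -0.0624. Neither value was computed over all gene pairs. In 4 of the 45 pairs r was above 0.8, beside 9.15% of all gene pairs in the table. These were Esam with Eng (0.930), Cdh5 with Esam (0.870), Tie1 with Plvap (0.843) and Cdh5 with Eng (0.843). In 5 pairs it was below -0.8, beside 8.9% of all gene pairs, among them Kdr with Cdh5 (-0.934) and Emcn with Plvap (-0.923). The r of Kdr with Cdh5 rests on small deviations, as their highest to lowest ratios were 1.17 and 1.16. For Emcn and Plvap these ratios were 2.16 and 1.91, but by ranks their relation was the weaker. Spearman's rho was -0.543 for Emcn with Plvap and -0.943 for Kdr with Cdh5. The genes whose log2 signal followed the mean profile of the 10 most closely were Scara3, Slc9a5, 2310015A10Rik, Zbtb48, Mapk7, Slc38a9, Wbp1 and Metrn, with r from 0.981 to 0.995 over 6 libraries. In all, 202 other genes, or 1.75% of the genes outside the 10, had an r above 0.9. None of the 8 named is an endothelial gene of the lists used here. The 8 are the extreme of all those genes over only 6 libraries.

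Ligands and co-receptors of the same pathways did not pass the test either. In the VEGF and angiopoietin list, 13 of 15 genes were in the table, with 0 past an adjusted p of 0.05 in limma. At an unadjusted p under 0.05, 3 of the 13 were higher and 1 lower, beside 10.5% and 8.51% of all genes, shares against which the counts of the lists that follow are also to be read. The median log2 difference was 0.0503, beside 0.0242 over all genes. Nrp2, a co-receptor for VEGF-C, had 62951, 71782 and 53597 in mutants and 40677, 50387 and 37668 in wild types (0.55 on the log2 scale, SE 0.19, limma adjusted p = 0.233). These groups did not overlap, and the difference was 0.45 (SE 0.14) with length and GC content removed. Flt4, the VEGF-C receptor VEGFR3, had 37263, 35826 and 32944 in mutants and 31249, 21192 and 18578 in wild types (0.61, SE 0.22, limma adjusted p = 0.235), or 0.28 (SE 0.15) after that removal. Vegfd, another ligand of that receptor, listed as Figf, had 17678, 19477 and 19947 in mutants and 15284, 12771 and 11875 in wild types, without overlap. Its log2 difference was 0.52 (SE 0.20, limma adjusted p = 0.243), and 0.66 (SE 0.18) after that removal. Angpt1, the activating ligand of Tek, had 12555, 14424 and 14642 in mutants and 14158, 31847 and 29560 in wild types. Wild type 330 again lay among the mutants, and the log2 difference was -0.78 (SE 0.29, limma adjusted p = 0.241), or -0.35 (SE 0.18) with length and GC content removed.

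Partners at the junction were all 15 in the table, with 1 higher and 2 lower at an unadjusted limma p under 0.05, 0 past the adjusted threshold and a median of 0.0840. Rasip1, a Rap1 effector of endothelial cells, had a log2 difference of 0.74 (SE 0.22), Ctnna1, alpha-catenin, of -0.43 (SE 0.17), and Rap1b, a small GTPase, of -0.52 (SE 0.22). Ctnna1 is also used by epithelial junctions, and it was at -0.47 (SE 0.16) with length and GC content removed, while Rasip1 and Rap1b went to 0.13 (SE 0.14) and -0.13 (SE 0.13). Of 14 genes of endoglin signalling, all in the table, 1 was higher and 1 lower at an unadjusted limma p under 0.05, with a median of 0.0162. They were Acvrl1, the receptor ALK1 that works with endoglin (0.51, SE 0.22), and Id2, a target of BMP signalling (-0.52, SE 0.24). These stood at 0.15 (SE 0.16) and -0.34 (SE 0.18) with length and GC content removed.

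Transcription factors of endothelium were all 18 in the table, with 1 higher and 1 lower at an unadjusted limma p under 0.05, 0 past the adjusted threshold and a median of 0.11. Sox18, a factor of vessel and lymphatic development, had 40175, 33236 and 37897 in mutants and 28372, 20502 and 22040 in wild types. The groups did not overlap, and mutants were 0.66 higher on the log2 scale (SE 0.19, limma adjusted p = 0.231), which was 0.20 (SE 0.13) with length and GC content removed. Foxc1, a forkhead factor also found in mesenchyme and podocytes, had a log2 difference of -0.46 (SE 0.19), and of -0.77 (SE 0.21) after that removal. Among the 30 other endothelial genes, 5 were higher and 2 lower at an unadjusted limma p under 0.05, beside 10.5% and 8.51% of all genes, 0 passed the adjusted threshold, and the median was 0.19, or -0.00694 with length and GC content removed. The first 5 by p were Rasip1, Egfl7 (0.88, SE 0.28), Robo4 (0.66, SE 0.25), Myct1 (-0.82, SE 0.31) and Cav1 (-0.49, SE 0.21). Egfl7 and Robo4, a secreted and a receptor protein of endothelium, are GC-rich at 57.1% and 54.9%, and Myct1 and Cav1, a caveolar coat protein, are GC-poor at 42.1% and 42.6%. With length and GC content removed, Egfl7 stood at 0.54 (SE 0.18) and Myct1 at -0.52 (SE 0.23), both still at an unadjusted limma p under 0.05. Robo4 stood at 0.38 (SE 0.18) and Cav1 at -0.21 (SE 0.18), above it.

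Markers of other cells were read beside these values. The leukocyte and platelet list, 8 of 13 names present, had a summed signal between 94887 and 99930 in mutants and between 57111 and 62661 in wild types, and a median log2 difference of 0.68. Of these 8, 5 were higher at an unadjusted limma p under 0.05, beside 10.5% of all genes, and 0 passed the adjusted threshold, led by C1qc (1.64, SE 0.34), Csf1r (0.95, SE 0.21), C1qa (0.85, SE 0.31), Pf4 (0.93, SE 0.37) and C1qb (0.49, SE 0.22). With length and GC content removed the median was 0.59, and 4 of the 8 had an unadjusted limma p under 0.05, beside 13.1% of all genes. Pecam1, which leukocytes and platelets share, had nearly equal means, and the part of such cells in the signal of Esam and Tie1 was not tested. The podocyte list, all 8 present, had a median of 0.26, with Synpo at 0.49 (SE 0.18), and the mural list, all 11 present, a median of 0.16, with Ren1 at 0.64 (SE 0.25) and Myh11 at -0.60 (SE 0.27). With length and GC content removed these medians were 0.0139 and -0.16, with Synpo at 0.0777 (SE 0.15), Ren1 at 0.43 (SE 0.19) and Myh11 at -0.79 (SE 0.30). The erythroid list had 5 of 10 genes present, with Hba-a1 at 0.29 (SE 0.31). Of 10 epithelial genes, Pax8 (0.72, SE 0.20) and Pax2 (0.44, SE 0.16) were higher and Slc12a1 (-0.86, SE 0.18) lower at an unadjusted limma p under 0.05. After that removal Pax8 was at 0.64 (SE 0.17), Pax2 at -0.14 (SE 0.14) and Slc12a1 at -0.71 (SE 0.13, limma adjusted p = 0.0458).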

How the data were processed

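Polyadenylated RNA from whole kidneys was made into Ion Torrent libraries, per the labels' protocols, 3 mutant and 3 wild type. The deposited table holds whole-number signal values per gene that the authors had scaled. Its ratio of group means, log2 of means and of their ratio, and p-value per gene are also the authors' own. The submitters' processing notes name mm10 and bedtools. How reads were aligned, assigned, filtered and scaled is not given in the sources used here, so read depth is unknown and no counting interval is given. The lowest mean signal was 3146, so low genes appear to be left out of the table.

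All 11578 genes were fitted with limma 3.58.1 in R 4.3.3 (variance trend) on log2(signal + 1), with Benjamini-Hochberg adjustment and a threshold of 0.05. Fold changes are on that scale. Requiring a value of 1 or more in 3 or more libraries took out no gene. On simulated data with 200 genes changed by 2 on the log2 scale, 197 were recovered, with 14 false calls; that change is larger than any endothelial gene showed and says nothing of smaller ones. Step sizes came from the periodicity of values below 60000, and steps below 1 and above 1 formed 2 depth classes. Transcript length and GC content came from GENCODE M21 (GRCm38, also called mm10) for 10951 genes by symbol and 567 by synonym. They were removed by loess per library (span 0.5, degree 1). Intervals are 95% from limma.

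Members and lists were chosen with earlier results of these data known. All 10 members are named, and of each other list up to 5 genes with the lowest p under 0.05 or else the most abundant, and the 8 genes most like the members' mean profile.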

Additional observations from a re-analysis of the deposited data

How the results depend on the processing

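Leaving out 1 library gave between 2 and 3095 genes past the threshold over the whole table (33 in the reported fit), between 0 and 3 endothelial genes at an unadjusted p under 0.05 (3), between 0 and 3 past the adjusted threshold (0) and a median endothelial difference between 0.0280 and 0.11 (0.0454). The highest gene count was without wild type 330 and the lowest without mutant 328. The whole-table count was 12 without mutant 336, 5 without mutant 342, 3 without wild type 331 and 17 without wild type 337. Endothelial genes at an unadjusted p under 0.05 numbered 1 without mutant 328 or wild type 337 and 0 without wild type 331. Endothelial genes at an unadjusted p under 0.05 numbered 1 without the variance trend, 1 with depth class as a covariate, 0 in libraries with steps below 1 alone, 0 with length and GC content removed and 0 by the equal-variance test on unlogged values. Genes past the threshold numbered 70 in libraries with steps below 1 alone, 704 in those with steps above 1 alone, 3493 with array weights and 0 by the equal-variance test. Endothelial genes past it numbered 1 in libraries with steps above 1 alone (Plvap) and 3 with array weights (Plvap, Emcn and Tie1). The median was 0.18 in libraries with steps above 1 alone and -0.0594 with length and GC content removed. Ranked by mean in place of longest transcript length, 4 of 10 genes kept their place in the order of levels, with Cdh5 first. Some fits use fewer libraries, and apart from that the cause was not tested.

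Of the single-gene values over all alternatives, 7 for endothelial genes and 55 for other named genes passed the threshold where the reported fit did not, most of them without wild type 330 or with array weights, and 15 and 6 turned sign. Leaving out 1 library, Tek ran from -0.12 to 0.12, Pecam1 from -0.0149 to 0.0521, Flt1 from -0.13 to 0.12 and Hba-a1 from -0.0145 to 0.62. With depth class as a covariate Flt1 was at 0.0586 and Hba-a1 at -0.0109. With steps below 1 alone Pecam1 was at -0.0417, Rap1b at 0.0462, Id2 at 0.13 and Hba-a1 at -0.0969, and with steps above 1 alone Tek was at -0.0430 and Flt1 at 0.19. Tek was at -0.0809 with array weights and -0.00386 by the equal-variance test. With length and GC content removed Pecam1 was at -0.0667, Cdh5 at -0.10, Eng at -0.0522 and Pax2 at -0.14. No paired analysis was possible because the groups share no replicate number.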

Other observations

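Values of 7 further genes of the lists, chosen after their values were seen, are given here as values with no count or theme drawn from them. Sox17, a factor of arterial endothelium, had 23173, 17200 and 22970 in mutants 328, 336 and 342, against 20974, 19897 and 28041 in wild types 330, 331 and 337 (log2 difference -0.12, SE 0.21). Dll4, the arterial Notch ligand, had 28349, 36528 and 22783 against 24338, 27240 and 19334 (0.29, SE 0.22), and Hey1, a Notch target, 26326, 23863 and 31171 against 31841, 28486 and 26132 (-0.0918, SE 0.19). Notch4, a Notch receptor of endothelium, had 35053, 30624 and 25797 against 25869, 16625 and 23042 (0.49, SE 0.22, limma adjusted p = 0.257). The groups overlapped for all 4. Lyve1, a marker of lymphatic endothelium that some macrophages also carry, had 5607, 4691 and 9939 against 3422, 7669 and 5662 (0.27, SE 0.39). Vegfa, the main ligand of Kdr, had 139007, 145217 and 131566 against 119604, 128001 and 156247 (0.0503, SE 0.16). Cldn5, the claudin of endothelial tight junctions, had 103688, 105487 and 113241 against 94562, 91334 and 76808, without overlap (0.30, SE 0.16, limma adjusted p = 0.307). Its longest transcript is 60.5% G and C, and with length and GC content removed its log2 difference turned to -0.12.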
